A study of Mus musculus with 7 samples.

Results

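Of the 76683 CTCF peaks in the pooled mouse liver list, 1705 lay at the promoters of protein-coding genes, carried cohesin, and had no entry in the list that sorts CTCF sites into 4 classes. They were chosen by position and by the peak lists themselves. A member is a CTCF peak on chromosomes 1 to 19 whose interval is absent from the class list, which shares at least 1 bp with a peak of the cohesin subunit Rad21, and whose summit lies within 1 kb of an annotated protein-coding transcription start. The autosomes held 74980 CTCF peaks, 23777 of them unclassed, and 8694 of the unclassed peaks overlapped Rad21. Chromatin immunoprecipitation followed by sequencing had been performed on livers of male Crl:CD1(ICR) mice, an outbred stock, 8 weeks of age, with an antibody to CTCF in 4 libraries and an antibody to Rad21 in 3 libraries. All libraries came from liver tissue, so the lists mix hepatocytes with the other cells of the organ, and ChIP peaks hold no expression marker with which the tissue label could be checked.

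CTCF is a zinc finger protein that binds a long, directional DNA motif. Cohesin is a ring-shaped complex that extrudes loops of chromatin until it meets bound CTCF, and Rad21 is the subunit that closes the ring. Cohesin is also loaded and retained at active promoters and enhancers that lack CTCF, sites known as cohesin-non-CTCF (CNC) regions. The study's class list holds TAD anchors, intra-TAD loop anchors, other cohesin-and-CTCF (CAC) sites and lone CTCF sites, and the study's methods describe its sites as CTCF peaks called in at least 2 of the individual livers. By that description, the members are peaks of the pooled reads that did not meet this condition. Both peak lists were called once on reads merged over livers, so no value per liver exists here. No test between groups was possible, comparisons are descriptions, and the 95% intervals printed after shares (Wilson) and medians (order statistics) cover counting error only.

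Members with strong matches to the CTCF motif are printed first because they show what most of the 1705 lacked. They are the 5 best matches outside annotated untranslated exons and 1 chromosome not printed here, and stronger matches within such exons, as at Asb6 with a score of 21.2, are not printed. The motif, 19 bp wide, was learnt from 1000 strong TAD anchors, and each line gives 59 bp of the mm9 genome, read 5′ to 3′ on the strand of the match, with the matching 19 bp in capitals. The highest CTCF score among these 5 was 260, at Tspan1.
Ccdc42, chr11:68399620-68399678, plus strand: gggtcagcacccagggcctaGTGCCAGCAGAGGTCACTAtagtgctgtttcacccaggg
Tspan1, chr4:115840276-115840334, minus strand: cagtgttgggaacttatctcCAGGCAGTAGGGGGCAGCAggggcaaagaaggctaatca
Ccdc121, chr1:183441596-183441654, minus strand: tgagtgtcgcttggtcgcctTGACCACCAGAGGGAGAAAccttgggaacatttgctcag
Slc15a5, chr6:138021067-138021125, plus strand: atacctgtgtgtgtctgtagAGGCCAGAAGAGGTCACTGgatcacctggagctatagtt
Pvalb, chr15:78035862-78035920, minus strand: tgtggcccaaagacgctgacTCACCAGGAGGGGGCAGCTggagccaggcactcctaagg

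At Ccdc42 the match scored 17.2 on the log2 odds scale, and the CTCF summit lay at -912 bp, negative positions being upstream of the start. Tspan1, which encodes a tetraspanin, had a match score of 16.7 with its CTCF summit at -26 bp, and its Rad21 summit was 2 bp from the CTCF summit. The centre of its match was not under these summits but at -73 bp from the CTCF summit, read along the gene. At Pvalb, which encodes the calcium-binding protein parvalbumin, the match scored 15 and the summit lay 947 bp downstream of the start. The next set holds the members of highest CTCF score without a match, under the same restriction on place, which leaves out several of higher score than the last of them, among them Enpp5, Zfp407, Nfyb and Abhd3. These 5 lines give 81 bp centred on the CTCF summit, read along the gene, with every CG dinucleotide in capitals.
Trp53i13, chr11:77326652-77326732, minus strand: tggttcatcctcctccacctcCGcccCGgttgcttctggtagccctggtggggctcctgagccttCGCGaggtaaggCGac
Lonrf1, chr8:37312796-37312876, minus strand: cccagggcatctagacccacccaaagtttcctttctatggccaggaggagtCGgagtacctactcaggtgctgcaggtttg
Hectd3, chr4:116668053-116668133, plus strand: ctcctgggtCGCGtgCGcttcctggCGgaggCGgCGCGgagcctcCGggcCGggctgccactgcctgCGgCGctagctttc
Dopey2, chr16:93712323-93712403, plus strand: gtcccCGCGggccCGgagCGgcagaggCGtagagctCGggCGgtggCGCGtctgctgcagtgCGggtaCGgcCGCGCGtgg
Phc2, chr4:128404604-128404684, plus strand: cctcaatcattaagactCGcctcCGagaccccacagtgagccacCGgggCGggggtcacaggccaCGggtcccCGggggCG

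The window at Dopey2 held 14 CG dinucleotides in 81 bp at a GC share of 79.0%, and that at Hectd3, an E3 ubiquitin ligase gene, held 11 at 76.5%. Phc2, a subunit of the Polycomb complex PRC1, had 7 and Trp53i13 had 5. Lonrf1 was the exception, with 1 CG dinucleotide and a GC share of 55.6%. Its best motif score, 7.47, was just under the limit for a match, 8.12, whereas those of the other 4 ranged from -3.54 to 3.52.

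The strength of the members follows from how they were chosen and is given as a description. The deposited score is 10 times the −log10 q-value of the peak, cut to a whole number. Members had a median CTCF score of 75 (74 to 78), with quartiles of 55 and 106 and a range of 18 to 436. The number of fragments at a summit and the local background that the peak caller used could be recovered from the deposited fold and p-value columns. The median member had 37 CTCF fragments at its summit over a background of 10.8, a fold of 3.15. Other CAC sites at promoters, 8245 in number, had a median score of 499 and a lower quartile of 282, with 99 fragments over 12.6. The ranges of the classes overlapped, since the lowest score among the other CAC sites was 129, and 237 of the 1705 members (13.9%) reached it.

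Rad21 differed less from other CAC sites than CTCF did. The median Rad21 score of members was 124 (117 to 131), with 45 fragments over a background of 10.3, against 249 and 61 fragments at other CAC promoters and 71 (68 to 73) and 37 fragments over 11 at 1872 CNC peaks at promoters. Rad21 scored above CTCF in 71.9% of members (69.7 to 74.0), in 65.5% of the 6989 unclassed distal peaks with Rad21 and in 16.8% of other CAC promoters. The members' share was 64.7% (62.0 to 67.2) in the 1293 whose Rad21 peak overlapped no other CTCF peak. It was 95.5% in the 287 whose Rad21 peak also overlapped a class-list CTCF peak. The ratio of Rad21 to CTCF fragments had a median of 1.18 (1.14 to 1.22) in members, 1.19 in the distal peaks and 0.578 in other CAC promoters. In the same 1293 and 287 members this ratio was 1.07 and 1.74. The pools of the antibodies differ in depth, so this ratio is meaningful only between groups of peaks. Across members the CTCF and Rad21 scores were almost unrelated (Spearman rho 0.062 over 1705 peaks, against 0.015 over the 6989 unclassed distal peaks with Rad21 and 0.427 over 8245 other CAC promoters, whose CTCF scores span a wider range), while the fragments at the summits (rho 0.517) and the 2 local backgrounds rose together (rho 0.819). These 2 values were 0.466 and 0.721 in other CAC promoters and 0.282 and 0.785 in distal peaks. The values of a member share 1 promoter and its base composition.

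**Figure D1:**
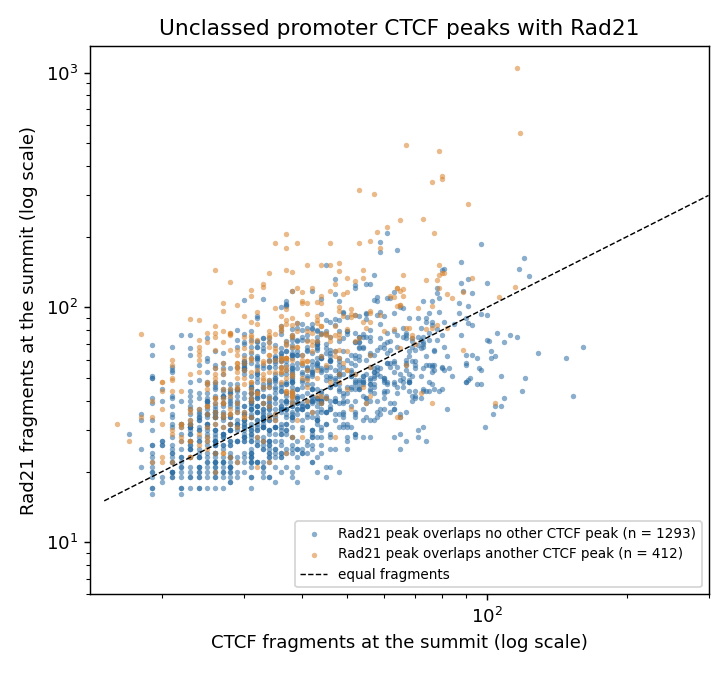
Each point is 1 of the 1705 members, with CTCF fragments at the summit on the x axis and Rad21 fragments on the y axis, both on log scales. Orange points are the 412 members whose Rad21 peak also overlaps another CTCF peak, blue points are the 1293 whose Rad21 peak overlaps no other, and the dashed line marks equal numbers. The points farthest above the line are orange, and 62.8% of all points lie above it.

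Whether a member had its Rad21 peak to itself is given with each set of strong members. At Dnmt3a, a de novo DNA methyltransferase gene, the CTCF score of 436 was the highest of all members. It rested on 153 CTCF fragments over a background of 36.9, 641 bp downstream of the start (chr12:3807631-3807922, intron), and 42 Rad21 fragments, with the 2 summits 3 bp apart. Enpp5 had a CTCF score of 308 and a Rad21 score of 196, with summits 3 bp apart. Nfyb, which encodes a subunit of the CCAAT-binding factor NF-Y, had 284 and 230, and E2f3, a cell cycle transcription factor gene, had 282 and 121 with summits 520 bp apart. In all 10 members of highest CTCF score the Rad21 peak overlapped no other CTCF peak, as in 75.8% of all members.

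The highest Rad21 score, 10022, belonged to the member at Mapk14, the gene of p38α MAP kinase, with 1049 Rad21 fragments but a CTCF score of 127. Its Rad21 summit lay 827 bp from the CTCF summit, and a class-list CTCF summit lay 839 bp away. Atad2b had a Rad21 score of 4270 and a CTCF score of 26, with a class-list summit at 404 bp. F3, which encodes tissue factor, the trigger of coagulation, had Rad21 and CTCF scores of 4091 and 53, and Irs1, the insulin receptor substrate gene, had 3750 and 127. Slc35b1, Oma1 (a mitochondrial protease), Psmd11 (a proteasome subunit), Farp1, Lphn2 and Tle1 (a Groucho corepressor) completed the 10, with Rad21 scores from 3046 down to 1583. All 10 of these Rad21 peaks overlapped another CTCF peak, a class-list summit lay between 404 and 918 bp from each member. None of the 10 had a motif match, which was also rare in all members (8.21%).

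This arrangement extended beyond those 10 genes. In 287 members (16.8%; 15.1 to 18.7) the Rad21 peak also overlapped a class-list CTCF peak, against 3.41% of the unclassed distal peaks with Rad21. The median Rad21 score of these 287 was 277 and their CTCF and Rad21 summits were 469 bp apart (431 to 508). The 1293 members (75.8%; 73.7 to 77.8) whose Rad21 peak overlapped no other CTCF peak had a median Rad21 score of 104 and summits 70 bp apart (66 to 76). The corresponding share was 93.3% at other CAC promoters and 91.9% at distal peaks. By distance, 701 members (41.1%; 38.8 to 43.5) lay within 1 kb of a class-list CTCF summit, compared with 29.6% of the 1313 unclassed promoter peaks without Rad21, 16.8% of other CAC promoters and 8.06% of distal peaks. The other 1004 members, each over 1 kb from any class-list summit, had a median Rad21 score of 110 and a median CTCF score of 76.5, and their Rad21 peaks overlapped no other CTCF peak in 87.4%.

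A match to the CTCF motif was found within 100 bp of the summit in 140 of the 1705 members, or 8.21% (7.00 to 9.61). The same search gave 58.4% over all autosomal CTCF peaks and 8.38% over windows around the most upstream starts of all 21410 protein-coding genes. At this setting the share in members was close to that in promoters as a whole, but it was above it within 50 bp of the summit, 5.10% against 3.71%, and below it at a stricter motif limit, given next to the other sets below. Other CAC promoters had 21.3% (20.4 to 22.2), unclassed distal peaks with Rad21 19.7% (18.8 to 20.6) and unclassed promoter peaks without Rad21 21.9% (19.7 to 24.2). CNC peaks at promoters had 3.37% (2.64 to 4.28), and 9468 promoters with neither a CTCF nor a Rad21 peak had 4.62%. The share in members was lower than in other CAC promoters on 19 of 19 chromosomes, lower than in unclassed promoter peaks without Rad21 on 19, lower than in distal peaks on 18, and higher than in CNC promoter peaks on 19. Single chromosomes ranged from 5.13% on chromosome 8 to 17.8% on chromosome 18, where 45 members lay. At the stricter motif limit, passed by 1% of flanking windows rather than 5%, 10 members (0.587%) had a match, against 5.30% of other CAC promoters, 5.41% of unclassed promoter peaks without Rad21 and 1.39% of all promoters.

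**Figure D2:**
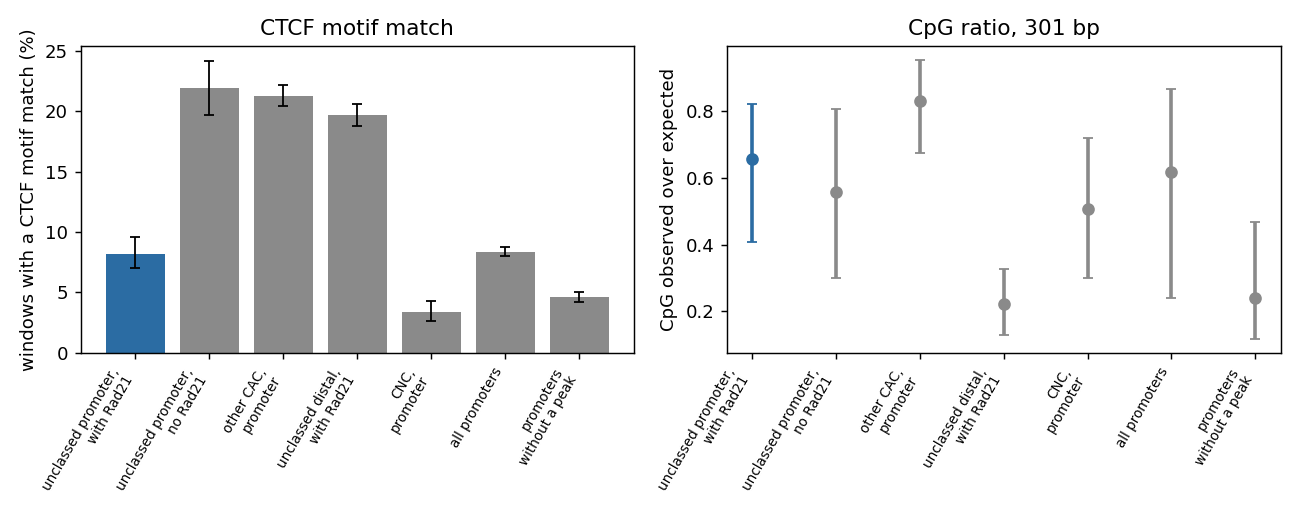
Left, the share of 201 bp windows with a CTCF motif match, with 95% Wilson intervals, for the members (blue) and 6 comparison sets (grey). Right, the median CpG observed over expected ratio within 150 bp of the summit or start, with bars from the lower to the upper quartile. Members had 8.21% motif matches and a median CpG ratio of 0.657, beside 21.9% and 0.559 in unclassed promoter peaks without Rad21.

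Among unclassed promoter peaks the contrast between those with and without Rad21 was present at like CTCF strength. For CTCF scores up to 60, 6.53% of members (4.76 to 8.91) and 15.7% of peaks without Rad21 (12.9 to 19.1) had a match. Between 60 and 100 the shares were 7.53% and 22.3%, and above 100 they were 11% (8.55 to 14.1) and 31.8% (26.8 to 37.2). In both sets stronger CTCF peaks held the motif more often. The contrast was also present at each distance from the start. Within 100 bp, 8.87% of members and 18.8% of peaks without Rad21 had a match, from 100 to 300 bp 5.40% and 18.7%, and from 300 to 1000 bp 10.3% and 25%. With a CpG ratio above 0.6 the shares were 7.54% (6.05 to 9.36) and 13.7% (11.2 to 16.6), and at lower ratios 9.13% and 28.9%. Other CAC promoters of low CpG ratio had the highest share, 42.5%.

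**Figure D3:**
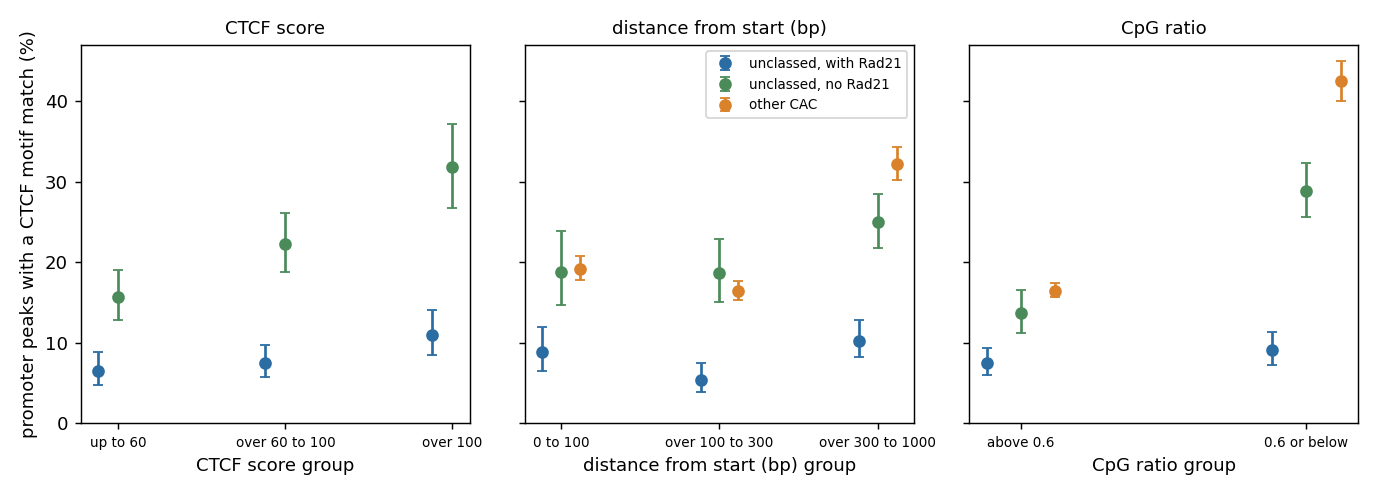
Share of promoter CTCF peaks with a motif match, with 95% Wilson intervals, by CTCF score, by distance of the summit from the start and by CpG ratio. Blue points are the members, green points unclassed promoter peaks without Rad21, and orange points other CAC sites, which are not shown by score because their lowest score is 129. The members lie lowest in each group, between 5.40% and 11%.

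Members with and without the motif differed in the balance of the proteins. The 140 with a match had a median CTCF score of 86.5 (75 to 99) and a Rad21 score of 101 (87 to 124), and the 1565 without had 74 (73 to 77) and 126. Rad21 scored above CTCF in 55.7% (47.4 to 63.7) of the former and 73.4% (71.1 to 75.5) of the latter. Where a match gave a direction, the Rad21 summit lay on the 3′ side of the CTCF summit in 83 of 139 members (59.7%; 51.4 to 67.5), beside 59.4% of other CAC promoters and 59.2% of distal peaks with a match. The median displacement along the motif was 29 bp (2 to 59) in members and 10 bp (7 to 13) in other CAC promoters. It was 11 bp (-7 to 45) in the 114 members with a match whose Rad21 peak overlapped no other CTCF peak, of which 62 of 113 (54.9%; 45.7 to 63.7) had Rad21 on the 3′ side, and 438.5 bp in the 22 whose Rad21 peak overlapped a class-list CTCF peak, of which 19 did.

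The conversion of methylated CG to TG has depleted the genome of CG, and the promoters that escaped it are known as CpG islands. The members had a median CpG observed over expected ratio of 0.657 (0.639 to 0.675) within 150 bp of the summit and a GC share of 60.1%. A ratio above 0.6 was found in 57.6% of members (55.2 to 59.9), 81.7% of other CAC promoters, 46.2% of unclassed promoter peaks without Rad21, 38.0% of CNC promoter peaks, 51% of all promoters and 4.24% of distal peaks. The members' median ratio was below that of other CAC promoters, 0.831, on 19 of 19 chromosomes. It was above that of CNC promoter peaks, 0.507, on 18. The sets also differed in distance from the start. Members lay a median of 222 bp from the start, other CAC sites 151 bp and CNC peaks 288 bp. Within 100 bp of the start the medians were 0.714 for members, 0.870 for other CAC sites and 0.456 for CNC peaks, between 100 and 300 bp they were 0.705, 0.847 and 0.599, and beyond 300 bp they were 0.576, 0.730 and 0.470.

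The 982 members above a ratio of 0.6 had a median CTCF score of 83 (78 to 86), against 68 (65 to 72) in the 723 at or below it, whereas their Rad21 scores were 124.5 and 124. CTCF background moved with the CpG ratio too, at 12.2 and 9.54 fragments. The median CTCF fold did not, at 3.13 (3.06 to 3.17) and 3.16 (3.11 to 3.23), so the higher score was not a higher enrichment over background. The ratio of Rad21 to CTCF fragments was 1.09 in CpG-rich and 1.32 in CpG-poor members.

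Short words of promoter factors were searched on both strands of the same windows. A match of this kind is a description of letters only. Windows of peaks are centred on summits and those of all promoters on starts. The part of this placement in the differences from all promoters was not tested. The GC box of the SP and KLF factors, GGGCGG, was in 44.2% of members (41.9 to 46.6), 63.1% of other CAC promoters, 33.7% of CNC promoter peaks and 46.6% of all promoters. The word CCAAT was in 26.9%, 21.4%, 28.0% and 35.3% of the same sets, and TATAAA in 4.93%, 3.32%, 7.00% and 10.8%. The ETS word CCGGAAGT was in 2.99% of members, 4.63% of other CAC promoters and 4.92% of all promoters. A CTCF core word, AGGGGGCG, which overlaps the GC box in part, was in 4.52% of members (3.63 to 5.61), 9.48% of other CAC promoters, 6.93% of unclassed promoter peaks without Rad21 and 7.54% of all promoters. Words of liver factors were uncommon. TGTTTAC (FOXA) was in 2.40% of members and 2.51% of all promoters, and CAAAGTCC (part of an HNF4A site) in 1.70% and 1.26%, with intervals that overlapped, while 6.18% and 3.41% of the distal peaks held them. GTTAATNA (part of an HNF1 site) was in 1.58% of members and 1.64% of all promoters, and TTGCGCAA (CEBP) in 0.117% and 0.196%. Of the remaining words, GCGCATGC (NRF1) was in 1.64% of members and 3.21% of all promoters, AAGATGGC (YY1) in 1.64% and 3.86%, and TGACGTCA (CREB and ATF) in 1.35% and 2.23%. The palindrome CTCGCGAG was in 1.11% and 1.17%, the E-box CACGTG in 6.69% and 7.33%, TGANTCA (AP-1) in 5.63% and 5.88%, and a second CTCF core word, AGGTGGCG, in 2.05% and 1.72%.

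Members clustered just inside the gene. The CTCF summit was downstream of the start in 61.6% of members (59.3 to 63.9), at a median position of +73 bp, and the Rad21 summit in 66.6% (64.3 to 68.8), at +114 bp. In other CAC promoters these shares were 65.5% and 69.7%, in unclassed promoter peaks without Rad21 54.8% of CTCF summits were downstream, and in CNC promoter peaks 63.0% of Rad21 summits. The members' Rad21 share was the lower on 11 of 19 chromosomes against other CAC sites and the higher on 14 against CNC peaks, so it did not separate consistently from either. Of the 1050 members with a CTCF summit downstream of the start, 88.8% also had the Rad21 summit downstream, and of the 655 with an upstream CTCF summit 31.0% did. Summits were within 100 bp of each other in 52.6% of members, 65.7% of other CAC promoters and 61.4% of distal peaks.

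**Figure D4:**
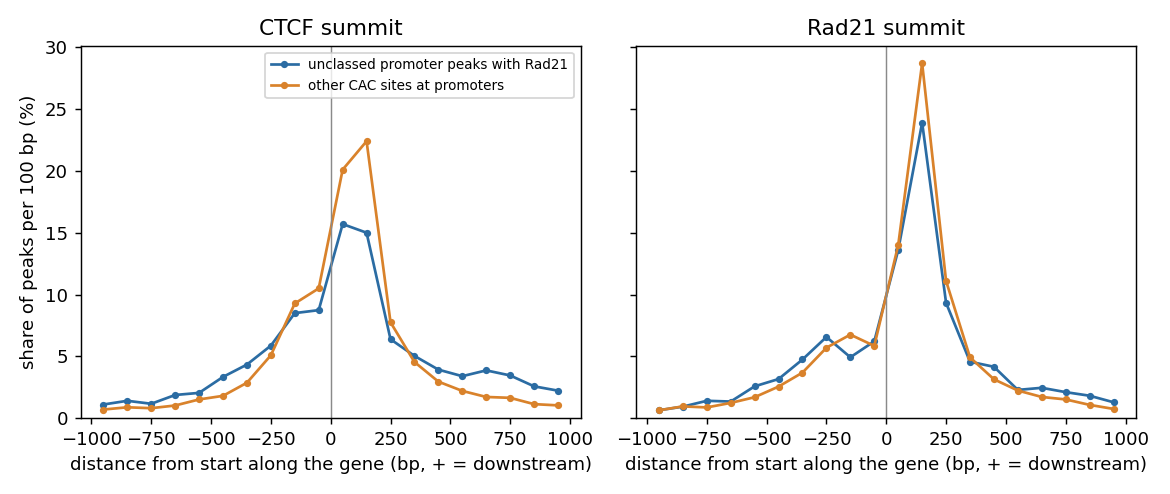
Share of CTCF summits (left) and Rad21 summits (right) in 100 bp bins of distance from the nearest protein-coding start, positive values lying inside the gene, for members (blue) and other CAC sites at promoters (orange). Both sets peak in the first 200 bp downstream. The members' CTCF summits are spread more widely, with a median distance of 222 bp against 151 bp.

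By annotation, 35.2% of members had their CTCF summit in an intron of a protein-coding gene, 23.3% in an exon of an untranslated region, 21.8% outside any annotated gene, 14% in a coding exon and 4.22% in a non-coding exon. The intron share was 27.8% in other CAC promoters, 32.1% in unclassed promoter peaks without Rad21 and 42.6% in CNC promoter peaks. The untranslated share was 28.7%, 20.7% and 20.1% in these sets, so the members lay within their range for both. Promoters shared by genes of opposite direction are frequent among housekeeping genes. A protein-coding start of another gene on the opposite strand, upstream and within 1 kb, was found for 8.39% of members (7.16 to 9.80), against 8.74% of other CAC sites, 8.81% of all promoters, 5.03% of unclassed promoter peaks without Rad21 and 2.49% of promoters without a peak.

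Rad21 was more often found on unclassed CTCF peaks at promoters than away from them. Of 3018 unclassed promoter peaks, the 1705 members made up 56.5% (54.7 to 58.3), whereas 33.7% of the unclassed distal peaks overlapped Rad21. Both shares were below the 67.4% of all autosomal CTCF peaks. In order of CTCF score, 5 equal groups of the promoter peaks had shares of 50%, 52.2%, 57.5%, 61.7% and 61.1%, so it was at least 50% even where the CTCF score was 49 or lower. Local CTCF background was 10.8 fragments in members and 7.66 in unclassed promoter peaks without Rad21. These values compare promoter peaks only, and the part of background in the difference between promoter and distal peaks was not tested.

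A member lay within 1 kb of a start of 1699 protein-coding genes, 7.94% of the 21410 on the autosomes. For 709 of these genes (41.7%; 39.4 to 44.1) no class-list CTCF peak lay within 1 kb of any start. Of all 21410 genes, 48.9% had such a peak, so lacking one was less frequent in genes with a member than in all genes. Most genes with a member had 1, 168 genes had 2 and 8 genes had 3. Among the latter were Acacb, which encodes the mitochondrial acetyl-CoA carboxylase, and Slc2a9, a urate transporter gene. The share of genes with a member ranged from 5.14% on chromosome 14 to 11.2% on chromosome 11. Since a member needs Rad21, lists of genes are also given relative to the 11240 genes that had a Rad21 summit or a member within 1 kb of a start, called genes with Rad21 here, of which 15.1% (14.5 to 15.8) had a member.

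The 5 lists described first had the largest shares among lists with at least 10 genes at which Rad21 was found. In the growth hormone and STAT5 pathway, through which pulses of pituitary hormone set sex-dependent liver transcription, 7 of 16 genes had a member, or 46.7% (24.8 to 69.9) of the 15 genes with Rad21. This list also had 3.75 annotated starts per gene against 2.06 in all genes, which gives each gene more windows, and the part of this in its share was not tested. Ghr, the growth hormone receptor gene, had a CTCF score of 233 and a Rad21 score of 516 with summits 1 bp apart, 112 bp downstream of a start, and a class-list summit lay 399 bp from it. Stat5b, the transducer downstream of it, had 50 and 285 with summits 19 bp apart, and Prlr, the prolactin receptor gene, had 33 and 336. At Irs1, described above, the Rad21 peak overlapped another CTCF peak, and a class-list summit lay 603 bp away. A class-list CTCF peak lay at a start of 11 of the 16 genes (68.8%), against 48.9% of all genes. Of the 7 genes with a member only 1 had none, against 41.7% of all genes with a member.

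Genes of cholesterol and fatty acid metabolism had a member in 12 of 34, or 36.4% (22.2 to 53.4) of 33 genes with Rad21. Dgat2, which encodes the last enzyme of triglyceride synthesis, had 2 members, at +153 and +806 bp, under 1 Rad21 peak of score 887, and the nearest class-list summit was 19686 bp away. Insig1, the sterol sensor that holds SREBP in the endoplasmic reticulum, had CTCF and Rad21 scores of 141 and 510 with summits 751 bp apart. Fdft1, squalene synthase, had 50 and 222. In the list of the urea cycle and gluconeogenesis, 6 of 17 genes had a member, or 37.5% (18.5 to 61.4) of 16 with Rad21. Pck1, which encodes the cytosolic PEP carboxykinase of gluconeogenesis, had scores of 100 and 237 with summits 54 bp apart at -303 bp, 5623 bp from any class-list summit. Pcx, pyruvate carboxylase, had 53 and 946, but a class-list summit lay 625 bp away. Gls2, liver glutaminase, had 115 and 312 with a class-list summit 639 bp away, and Got1, the cytosolic aspartate aminotransferase, had 101 and 140 with one 395 bp away.

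Among secreted plasma proteins 8 of 38 genes had a member, 30.8% (16.5 to 50) of 26 with Rad21. Apoa1, the main protein of high-density lipoprotein, had 91 CTCF and 101 Rad21 fragments with summits 15 bp apart. Fga, the fibrinogen α chain gene, had 22 and 76 fragments, and its nearest class-list summit was 14656 bp away. Apoh had 31 and 40. Hepatocyte transcription factor genes had a member in 6 of 23, or 31.6% (15.4 to 54.0) of 19 with Rad21, including Rxra and Nr0b2. Nr0b2, the gene of the small heterodimer partner that represses bile acid synthesis, had 2 members, at -332 and +220 bp, with CTCF scores of 42 and 155. Complement and coagulation genes had a member in 6 of 28, among them Cfb (complement factor B) and F2 (prothrombin), and 24.0% (11.5 to 43.4) of 25 with Rad21, an interval that includes the share of all genes. Cyp7a1, the rate-limiting enzyme of bile acid synthesis, had CTCF and Rad21 scores of 55 and 119 at -115 bp and was 1 of 6 cytochrome P450 genes out of 98 with a member, or 17.6% (8.35 to 33.5) of 34 with Rad21. The others named were Cyp2d26, Cyp2d22 and Cyp2d40, neighbours in 1 gene cluster on chromosome 15. Of the circadian clock genes, 4 of 20 had a member, or 21.1% (8.51 to 43.3) of 19 with Rad21. Nr1d1, the repressor REV-ERBα, and Tef each had 2, and Cry2 had 1.

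The shares of housekeeping lists ranged from 11.8% to 26.7%, and each interval included that of all genes. Cytoplasmic ribosomal protein genes had a member in 11 of 82, or 16.2% (9.28 to 26.7) of 68 with Rad21, mitochondrial ribosomal protein genes in 8 of 75 or 11.8% (6.08 to 21.5), translation initiation factors in 8 of 55 or 16.0% and respiratory chain and ATP synthase subunits in 12 of 75 or 20.7% (12.3 to 32.8). Rpl37a had CTCF and Rad21 scores of 176 and 215 with summits 6 bp apart, and Mrpl1 had 108 and 317 with summits 54 bp apart. Proteasome subunits had a member in 8 of 40 or 21.6%, aminoacyl-tRNA synthetases in 5 of 20 or 25% (11.2 to 46.9), Mediator subunits in 5 of 29 or 17.9%, splicing and RNA-binding factors in 6 of 51 or 12.8%, RNA polymerase subunits in 4 of 26 or 17.4%, chaperones in 3 of 25 or 15.8% and replication-dependent histones in 4 of 67 or 26.7% (10.9 to 52.0). Polr2a, the largest subunit of RNA polymerase II, had 71 and 59, and Hspa8, the constitutive Hsc70 chaperone, had 98 and 58. Zinc finger genes of the Zfp series had a member in 27 of 357, or 11.2% (7.81 to 15.8) of 241 with Rad21. In the CTCF and cohesin machinery 3 of 14 genes had one, namely Cdca5 (sororin), Pds5b and Mau2, or 21.4% (7.57 to 47.6) of 14 with Rad21. Among immediate early genes 4 of 29 had one, namely Ier2, Ier3, Fosl2 and Klf2, or 14.3% (5.70 to 31.5) of 28 with Rad21. Both intervals include the 15.1% of all genes.

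Olfactory receptor and keratin genes are used mainly outside the liver. A member lay at 1 of 1081 olfactory receptor genes (Olfr1161) and 1 of 46 keratin genes (Krt23; 2.17%, 0.385 to 11.3, an interval that includes the 7.94% of all genes), and 2 and 4 genes of these lists had a Rad21 summit or a member at a start at all. The intervals of 5 of the 25 lists lay above the share of all genes with Rad21, 15.1%: growth hormone and STAT5, urea cycle and gluconeogenesis, cholesterol and fatty acids, secreted plasma proteins and, by its lower bound of 15.4%, hepatocyte transcription factors. The same 5 lists also had CNC peaks at promoters of 50%, 47.1%, 23.5%, 34.2% and 30.4% of their genes, in that order, against 8.53% of all genes. These CNC shares are of all listed genes, not of genes with Rad21. Outside the 5, complement and coagulation had 42.9%, circadian clock genes 35.0%, immediate early genes 34.5% and aminoacyl-tRNA synthetases 25%. The remaining lists had from 0% to 21.4%, so high CNC shares were not particular to the 5. The 25 lists were chosen with earlier results of the data known, and the 5 are small.

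**Figure D5:**
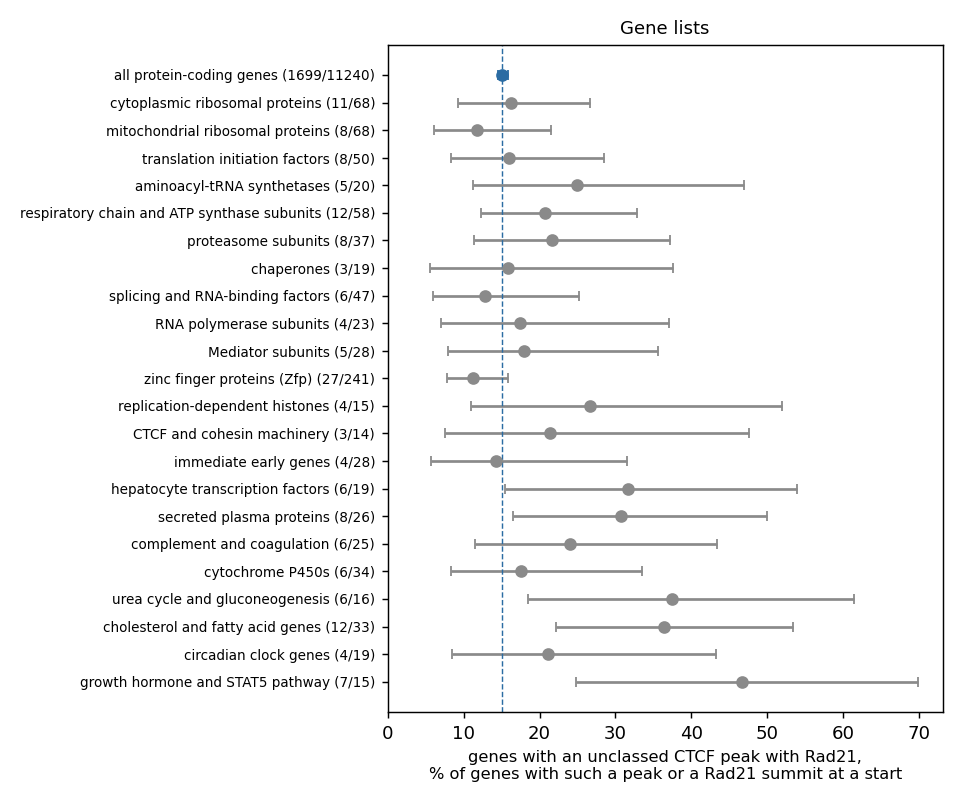
Share of genes with a member among genes with a Rad21 summit or a member within 1 kb of a start, with 95% Wilson intervals, for lists with at least 10 such genes. Numbers in parentheses are genes with a member and genes with Rad21, and the dashed line is the share of all protein-coding genes, 15.1%.

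The limits of the rule fell in the middle of a continuum. Just inside 1 kb lay members at Sorbs2 (1000 bp, CTCF score 44) and Lrch1 (993 bp, score 215), and just outside lay peaks at Git2 (1002 bp, score 185) and Rfc2 (1008 bp, score 66). The smallest overlap with Rad21 was 1 bp at Psmd8, where the summits were 816 bp apart, followed by 3 bp at Ufd1l and Zkscan1. The closest unclassed promoter peaks that did not overlap Rad21 were at Nlgn2, 1 bp from it, and at Cplx1, 2 bp. The weakest members were at Ruvbl1, with 16 CTCF fragments over a background of 5.99 and a score of 18, and at Slc6a12, with 18 fragments. By fold, the strongest were Abhd3 (7.44), Nipa1 (7.01), Nckap5 (6.86), Pbk (6.58) and Nckap5l (6.58), each with 45 to 51 fragments over a background of 5.99 to 6.43, near the lowest background of any member.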

How the data were processed

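CTCF and Rad21 ChIP-seq of male mouse liver was used as 3 deposited lists. The authors pooled the reads of all livers for each antibody, aligned the pool to mm9 (Bowtie2) and called its peaks with MACS2, according to the paper. The deposited score is 10 times the −log10 q-value. The deposited fold is a ratio of fragments at the summit to local background, with a pseudocount of 1 on each. The deposited −log10 p-value and q-value columns come from the authors' peak caller. Merging reads gives livers sequenced more deeply more weight and removes all replicate spread, and the total depth of each library is not given in the lists.

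From fold and p-value, the summit fragments came out whole within 0.01 in 99.996% of CTCF and 99.997% of Rad21 peaks. Starts, 44018 in all, were those of protein-coding transcripts in GENCODE vM1 on the mm9 genome. The strongest overlapping Rad21 peak was used for each member. The motif was learnt on odd autosomes, and its limit was passed by 5% of windows 2 kb from anchors on even autosomes. Windows at starts used the most upstream start of each gene. Scripts (pysam 0.24.0, pandas 2.3.3, NumPy 2.4.6, SciPy 1.17.1 and Matplotlib 3.10.9 under Python 3.11.15) were tested on simulated data.

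Genes were named by rule: the 10 members of highest CTCF score and of highest Rad21 score, 5 of highest fold, 5 of lowest score, all members of a list up to 6 or otherwise the 4 of highest Rad21 score, 10 members for sequences and those at the limits, of which the text names some. Members, the 25 gene lists and the 16 words were chosen with earlier results of these data known. Results for 1 list and for some genes that the rule names are not reported here.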

Additional observations from a re-analysis of the deposited data

Results flagged for a closer look

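The 1705 unclassed CTCF peaks with Rad21 at promoters are themselves the result to look at again, since they are signal in the pooled lists that the study's class list leaves out. Their Rad21 score had a median of 124, a value that the choice of members bears on, since each had to overlap a Rad21 peak and the strongest was taken. The median was 277 in the 287 members whose Rad21 peak also overlapped a class-list CTCF peak and 104 in the 1293 whose Rad21 peak overlapped no other CTCF peak. The CTCF motif share of all members was 8.21% against 8.38% of all promoters. That near-equality depends on the motif setting: the shares were 5.10% and 3.71% within 50 bp, and 0.587% and 1.39% at the strict limit.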

How the results depend on the processing

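Of 92 values under other settings, 60 moved by less than their counting interval (or, for counts, 1.5 times) and 32 by more. Of the 60, 8 could not move, since no member overlapped the class list and that setting left the members as they were. The motif share stayed between 7.16% and 9.76% under every choice of members, the latter with starts within 2 kb. It was 5.10% within 50 bp of the summit and 0.587% at the 1% limit. The members' share was also below that of other CAC promoters under both of these settings, which had 15.2% and 5.30%, but against all promoters (3.71% and 1.39%) it was above under the first and below under the second. The number of members fell to 916 with 50% reciprocal overlap, to 910 with any overlapping Rad21 summit within 100 bp (896 when only the strongest overlapping Rad21 peak is counted) and to 1004 over 1 kb from a class-list summit. Those 3 settings gave median CTCF scores of 84, 85 and 76.5, Rad21 scores of 105, 115 and 110, CpG ratios of 0.686, 0.686 and 0.631, and shares with a Rad21 peak overlapping no other CTCF peak of 96.7%, 90.5% and 87.4%. Divergent promoters made up 9.83% under the first and 6.57% under the last. With CTCF scores of at least 50 the median CTCF score was 86 and the share with a sole CTCF peak 78.5%, and with both scores at least 50 the medians were 86 for CTCF, 140 for Rad21 and 0.677 for the CpG ratio. The CpG ratio was 0.683 with starts within 500 bp (where the share with a sole CTCF peak was 80.5%), 0.617 with starts within 2 kb, 0.683 with the most upstream starts, 0.617 with starts of any gene type and 0.633 with starts of all transcripts of protein-coding genes. With the most upstream starts 71.8% of Rad21 summits were downstream and 10.1% of promoters divergent. The setting with starts of all transcripts and that over 1 kb from class-list summits were chosen after seeing the data. No paired analysis was possible because the lists are pooled over livers, and for the same reason no liver could be left out. Depth limits the weakest members, which rest on 16 fragments.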
